A study of Mus musculus with 12 samples.

Results

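The p53 and Rb tumour suppressor axis was followed through 10 genes, Trp53, Trp73, Mdm2, Mdm4, Cdkn1a, Bbc3, Rb1, Cdkn2a, Cdkn2b and Cdkn2c, in 2 mouse osteosarcoma cell lines. The genes were chosen by name, and a probe was taken for a gene where the transcript accession in the scanner files belongs to it. All 10 genes were found, on 16 probes, among the 20144 genes that could be named on an array of 39429 probes. The lines were Dunn, a mouse osteosarcoma line of low metastatic potential, and LM8, a metastatic line derived from Dunn by selection in animals. Total RNA of untreated cells was hybridised to 12 one-colour Agilent arrays, with 3 independent cultures in each of 4 groups. The groups were early Dunn cells of passage 25, late Dunn cells of passage 86, early LM8 cells of passage 24 and late LM8 cells of passage 91. The design asks how much expression drifts during culture and which differences between the lines hold at both ages. Each genotype is a single line, so a difference between LM8 and Dunn is a difference between these lines. The submitters' source field calls the lines human, while their organism field and the array are mouse.

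p53, the product of Trp53, is a transcription factor that halts the cell cycle or starts apoptosis after DNA damage and other stress, and Mdm2 and Mdm4 hold it in check. The Rb protein, made from Rb1, keeps E2F factors from switching on genes of DNA replication until cyclin-dependent kinases phosphorylate it, and the p16, p15 and p18 proteins of Cdkn2a, Cdkn2b and Cdkn2c inhibit those kinases. Cdkn2a also encodes p19Arf, which blocks Mdm2, so that 1 locus feeds both arms, and loss of either arm is a recurrent feature of osteosarcoma.

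Signals are given as log2 of the processed signal minus the 75th percentile of the array, so 0 is a probe as bright as that percentile. That percentile was a signal of 287.2 to 603.0 on the early Dunn arrays, 685.9 to 961.4 on the late Dunn arrays, 893.0 to 1316.5 on the early LM8 arrays and 1166.4 to 1903.1 on the late LM8 arrays. A probe counts as detected where the scanner software called its signal well above background. The scaled signals of all genes detected on every array that measured them had a median difference of -0.44 between early LM8 and early Dunn cells, of -0.24 between late LM8 and late Dunn cells, of -0.27 with passage in Dunn cells and of -0.07 with passage in LM8 cells. Several differences between the lines are therefore also given relative to these medians, and other changes are not corrected for them. Beside each direction its value in signals without this scaling is given where it turns for a probe described. All 3 slides carried the 4 groups in one fixed order of positions, so position and group cannot be told apart. On the first array of both Dunn groups the lowest detected signal was higher, at 32.3 and 36.45 against 9.03 to 16.67 on the other 10 arrays.

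Of the 10 genes, 8 were detected on all 12 arrays, Trp73 on 4 and Cdkn2a on none. A gene was called changed at an adjusted p under 0.05 by limma. In late against early Dunn cells 0 of the 10 genes were called, as were 0.00497% of all genes. In late against early LM8 cells 0 of 10 were called, beside 2.82% of all genes. Between early LM8 and early Dunn cells 0 of 10 were called, beside 4.55%. Between late LM8 and late Dunn cells 1 of 10 was called, Cdkn1a, beside 3.83%. The passage effect itself was not called different between the lines for any of the 10, beside 0.606% of all genes. On the brightest probe of a gene, the study's own criterion, a change over 2-fold at an unadjusted p under 0.05, was met by 0 of 10 with passage in Dunn cells (4.86% of all genes), by 0 of 10 with passage in LM8 cells (7.29%), by Trp53 and Cdkn1a between the early lines (36.7%) and by Cdkn1a and Cdkn2c between the late lines (13.3%). Other probes of some genes also met it, among them the dimmer Mdm4 probe with passage in Dunn cells. Of the 8 genes detected throughout, 1 had groups without overlap with passage in Dunn cells (36.3% of all genes detected on those arrays), 2 with passage in LM8 cells (24.8%), 4 between the early lines (57.5%) and 5 between the late lines (52.3%).

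**Figure D1:**
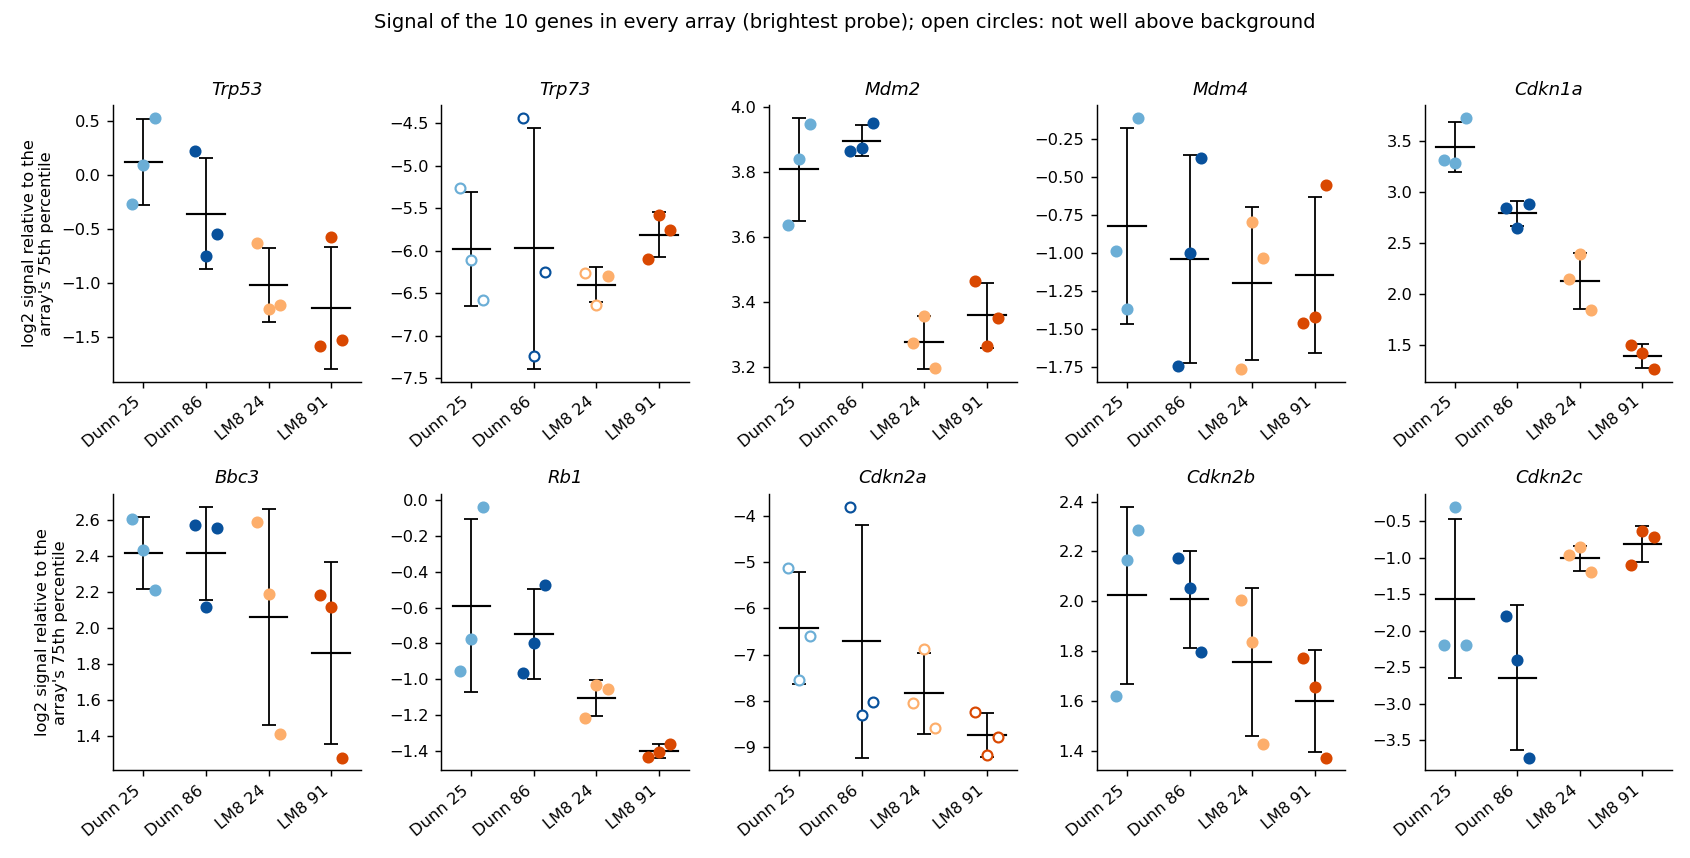
Signal of the brightest probe of each of the 10 genes in every array, as log2 of the processed signal minus the array's 75th percentile (vertical axis, own range for each gene), in Dunn cells of passage 25 and 86 and LM8 cells of passage 24 and 91. Points are the 3 arrays of a group, open where the signal was not well above background, and bars give the mean and SD. On this scale Cdkn1a falls from the left group to the right with no overlap, while its processed signals overlapped between all groups. All points of Cdkn2a are open.

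Trp53 was detected on all 12 arrays by its 1 probe. Its log2 signal was -0.27, 0.09 and 0.53 on the early Dunn arrays, 0.22, -0.76 and -0.55 on the late Dunn arrays, -0.63, -1.24 and -1.21 on the early LM8 arrays and -1.59, -0.58 and -1.53 on the late LM8 arrays. The early LM8 arrays all lay below the early Dunn arrays, while late LM8 replicate 2 overlapped with late Dunn cells. The difference between the early lines was -1.14 (SE 0.359, n = 3 arrays a group), or -0.70 relative to the median of detected genes. It did not pass the test by limma (adjusted p = 0.0776), turned to 0.33 without scaling and was called in 3 of 18 alternative settings. Between the late lines it was -0.87 (SE 0.422, 95% interval -1.93 to 0.18, adjusted p = 0.279), or -0.63 relative to the median of detected genes, and -0.007 without scaling. With passage Trp53 differed by -0.48 in Dunn cells (95% interval -1.50 to 0.55) and by -0.21 in LM8 cells (95% interval -1.01 to 0.60), with overlapping groups in both, and these turned to 0.49 and 0.16 without scaling.

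Trp73 encodes p73, a relative of p53 that can bind the same sites. Its brightest probe gave signals of 17.01, 39.8 and 25.2 in late LM8 cells, all well above background. Early LM8 cells gave 11.7, 13.2 and 15.3, of which 1 was detected, and early Dunn cells 10.1, 8.75 and 3.01, with none detected. Late Dunn cells gave 34.9, 6.39 and 9.03, also none detected, with the highest value on the first array, whose lowest detected signal was 36.45. The other 2 probes of Trp73 were detected on 1 array of 12, late Dunn replicate 1, and on none, so the detection in late LM8 cells rests on a single probe. On the scaled log2 axis the brightest probe averaged -5.98 in early and -5.97 in late Dunn cells. In LM8 cells it averaged -6.40 early and -5.81 late. It differed by -0.42 between the early lines (SE 0.414), or 1.05 without scaling, and by 0.16 between the late lines (SE 0.735). From early to late LM8 cells it changed by 0.59 (SE 0.223, adjusted p = 0.297), and the groups did not overlap. The second probe, undetected in both groups, differed there by -0.96, also without overlap. Trp63, which encodes the related p63, was detected on all 12 arrays and is counted with the p53 regulators below.

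Neither p53 antagonist was called in any comparison. Mdm2, the ubiquitin ligase that marks p53 for degradation and is itself a p53 target, had log2 signals of 3.64, 3.84 and 3.95 in early Dunn, 3.87, 3.87 and 3.95 in late Dunn, 3.27, 3.36 and 3.20 in early LM8 and 3.47, 3.27 and 3.35 in late LM8 cells. On this scale every LM8 array lay below every Dunn array, an order that turned to differences of 0.94 and 0.33 without scaling. The difference was -0.53 between the early lines (SE 0.284, adjusted p = 0.187) and -0.54 between the late lines (SE 0.199, adjusted p = 0.233), which is -0.09 and -0.30 relative to the median of detected genes. With passage Mdm2 changed by 0.09 in Dunn cells (95% interval -0.61 to 0.78) and by 0.08 in LM8 cells (95% interval -0.33 to 0.50).

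Mdm4 encodes a relative of Mdm2 that masks the activation domain of p53. Its 2 probes gave scaled changes of opposite sign between the lines and with passage in Dunn cells. The brighter probe ranged from -1.76 to -0.11 over the 12 arrays, with overlapping groups in every comparison and a difference of -0.37 between the early lines and of -0.11 between the late lines, which turned to 1.10 and 0.76 without scaling. The dimmer probe was higher in LM8 than in Dunn cells by 1.57 at early passage (SE 0.534, adjusted p = 0.0776) and by 1.02 at late passage (SE 0.300, adjusted p = 0.163), and without scaling the early difference was 3.04 and passed the test (adjusted p = 0.0322). It was detected on 1 early Dunn array, 2 late Dunn arrays and all 6 LM8 arrays. With passage in Dunn cells the brighter probe differed by -0.22, or 0.75 without scaling. The dimmer probe rose there by 1.07 without overlap (SE 0.403, adjusted p = 0.782 by limma). That change met the study's criterion, as did the dimmer probe's differences between the early and between the late lines. Relative to the median of detected genes both probes were positive, at 0.07 and 2.01 between the early lines and at 0.14 and 1.26 between the late lines. The sign of the brighter probe thus depends on the scale.

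Cdkn1a encodes p21, the inhibitor of cyclin-dependent kinases through which p53 stops the cell cycle, and it showed the 1 called change. The processed signals of its brighter probe, averaged over 10 spots an array, were 3839, 5848 and 3789 in early Dunn cells, 5421, 6024 and 5049 in late Dunn cells, 3974, 6910 and 4337 in early LM8 cells and 3305, 5116 and 3290 in late LM8 cells. On the scaled log2 axis these became 3.31, 3.28 and 3.72, then 2.84, 2.65 and 2.88, then 2.15, 2.39 and 1.85, and last 1.503, 1.43 and 1.27. On this scale the 4 groups formed 4 separate ranges, in the order early Dunn, late Dunn, early LM8 and late LM8. The processed signals overlapped between all groups. Without scaling, late Dunn cells differed from early Dunn cells by 0.32 and early LM8 from early Dunn cells by 0.16, so this order rests on the scaling. Between the late lines Cdkn1a fell by 1.39 on the log2 scale (SE 0.209, n = 3 arrays a group, adjusted p = 0.0346), or was 2.62-fold lower in LM8 cells. The difference was -1.34, -1.22 and -1.61 within slides 1, 2 and 3, and -1.15 relative to the median of detected genes.

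The call is close to its threshold. With the slide as a block the adjusted p was 0.172. Leaving out late Dunn replicate 1 kept the call (adjusted p = 0.0183), while leaving out late Dunn replicate 2 (0.0764) or 3 (0.138) or late LM8 replicate 1 (0.142), 2 (0.214) or 3 (0.196) ended it, with a change between -1.46 and -1.33 throughout. In the signals without scaling between arrays the change was -0.52 (adjusted p = 0.538). The second Cdkn1a probe differed by -1.16 between the late lines (SE 0.270, adjusted p = 0.104), also without overlap.

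The other comparisons of Cdkn1a did not pass the test. Between the early lines the brighter probe differed by -1.31 (SE 0.318, adjusted p = 0.0769), or by -0.87 relative to the median of detected genes, and the dimmer probe by -0.31 (SE 0.312, adjusted p = 0.454), or by 0.13 relative to that median. Without scaling both turned, to 0.16 and 1.16. Leaving out early Dunn replicate 2 gave -1.39 on the brighter probe, which then passed the test (adjusted p = 0.022). In all, 6 of 18 alternative settings called the early difference of this probe. With passage the brighter probe differed by -0.65 in Dunn cells (SE 0.301, adjusted p = 0.782) and by -0.73 in LM8 cells (SE 0.212, adjusted p = 0.199). The dimmer probe differed by 0.21 in Dunn cells and by -0.64 in LM8 cells, so the 2 probes had opposite signs in Dunn cells, where the brighter one also turned to 0.32 without scaling. The passage effects of the 2 lines differed by -0.08 (95% interval -0.81 to 0.64) on the brighter probe.

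**Figure D2:**
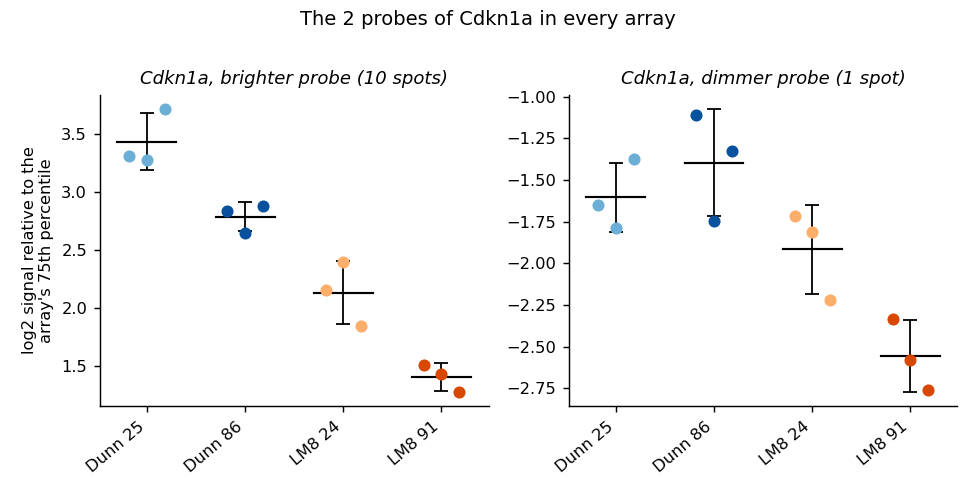
Log2 signal relative to the array's 75th percentile (vertical axis) of the brighter and the dimmer Cdkn1a probe in the 3 arrays of each group, with the mean and SD. On this scale both probes are lowest in late LM8 cells, and the dimmer probe does not repeat the step from early to late Dunn cells.

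The sequence before the first annotated start of Cdkn1a is shown because it holds matches to the p53 half-site consensus, the decamer that p53 binds in pairs. It is the 250 bases upstream of that start from RefSeq (GRCm38.p6, chr17:29090729-29090978, plus strand), with matches in capitals.
Cdkn1a: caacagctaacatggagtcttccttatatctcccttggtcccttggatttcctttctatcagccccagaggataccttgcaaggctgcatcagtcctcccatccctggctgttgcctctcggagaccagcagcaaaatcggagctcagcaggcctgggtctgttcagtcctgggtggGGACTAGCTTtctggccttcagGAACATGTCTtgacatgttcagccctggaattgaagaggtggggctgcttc
The matches begin 73 and 51 bases before the start. The consensus was searched on both strands, and 7.13% of all 32851 upstream windows of 250 bases hold at least 1 match. Of the 16 windows of the 9 axis genes in that table, those of Trp53 and Mdm2 hold 1 match each and the second Cdkn1a window none. A match describes the letters only.

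Bbc3 encodes Puma, the p53 target that starts apoptosis at mitochondria. Its log2 signal was between 1.28 and 2.61 over all 12 arrays, with overlapping groups in every comparison. The difference between the late lines was -0.55 (95% interval -1.40 to 0.29, adjusted p = 0.300), and with passage it was -0.00 in Dunn cells (95% interval -0.77 to 0.77) and -0.20 in LM8 cells (95% interval -1.13 to 0.72). Without scaling these 3 differences were 0.31, 0.96 and 0.16.

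Rb1 was detected on all 12 arrays, each value an average over 10 spots. Its log2 signal was -0.95, -0.78 and -0.04 in early Dunn, -0.97, -0.80 and -0.48 in late Dunn, -1.22, -1.04 and -1.06 in early LM8 and -1.44, -1.41 and -1.36 in late LM8 cells. Every LM8 array lay below every Dunn array on this scale, while without scaling the differences were 0.95 and 0.21. The scaled difference was -0.52 between the early lines (SE 0.351, adjusted p = 0.283) and -0.65 between the late lines (SE 0.229, adjusted p = 0.215), or -0.07 and -0.41 relative to the median of detected genes. The Rb1 signal in early LM8 cells was thus lower by about as much as that of the typical detected gene. With passage Rb1 differed by -0.16 in Dunn cells (95% interval -1.09 to 0.77) and by -0.30 in LM8 cells (95% interval -0.71 to 0.11), which were 0.81 and 0.07 without scaling.

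**Figure D3:**
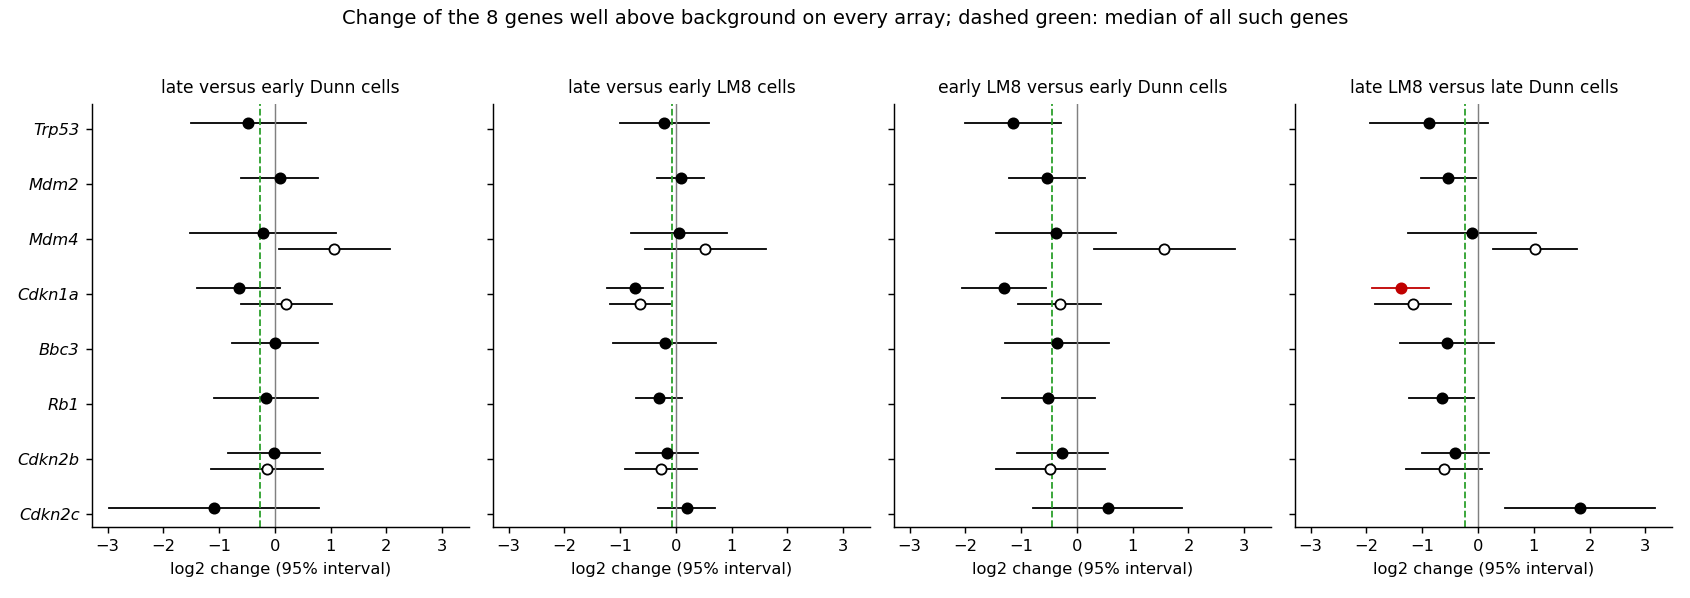
Log2 change (horizontal axis) with its 95% interval for the 8 genes detected on every array, in 4 comparisons. Filled points are the brightest probe and open points a second probe, red marks an adjusted p under 0.05, and the dashed line is the median of all detected genes. Only Cdkn1a between the late lines is red, and the dimmer Mdm4 probe lies to the right of the brighter one in all 4 panels.

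Cdkn2a was not detected on any array by either of its probes, both listed under the accession of the p19Arf transcript. The brighter probe gave 11, 3.23 and 2.97 in early Dunn, 53.9, 3.06 and 2.63 in late Dunn, 3.36, 11.3 and 3.15 in early LM8 and 3.86, 3.30 and 3.11 in late LM8 cells. The value of 53.9 came from late Dunn replicate 1, the array whose lowest detected signal was 36.45, and there the software still did not call the spot well above background. The second probe lay between 2.23 and 9.51. No fold is given, since no group was detected. The files do not say where in the transcript a probe lies.

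Cdkn2b, which encodes p15 and lies beside Cdkn2a, gave a bright signal on every array. Its processed signal ranged from 1190 to 2703 in early Dunn, from 2381 to 3991 in late Dunn, from 3253 to 4704 in early LM8 and from 3534 to 5995 in late LM8 cells. On the scaled log2 axis the group means were 2.03, 2.01, 1.76 and 1.60, with overlap in 3 of the 4 comparisons. Late LM8 cells lay below late Dunn cells by 0.41 (SE 0.237, adjusted p = 0.293) without overlap, and the second probe by 0.61 (SE 0.273, adjusted p = 0.279). Within slides 1, 2 and 3 the late difference of the brighter probe was -0.40, -0.40 and -0.42, and without scaling the difference turned to 0.46 on the brighter probe and to 0.26 on the second.

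The genes around Cdkn2a on chromosome 4 were followed in the order of the GRCm38.p6 annotation, with the 8 nearest measured genes on each side. Mtap, a methionine salvage enzyme, is the nearest on one side and was detected on all 12 arrays with signals between 387.5 and 977.1. Cdkn2b is the nearest on the other side, also detected on all 12. Zfp352 and Caap1 were the other 2 of the 16 neighbours detected on all arrays. Undetected on every array were 5 neighbours, namely Ifna7 and Ifna4 of the interferon alpha cluster, Wincr1, Izumo3 and Tusc1. Over all genes measured 47.4% were detected on every array that measured them and 21.7% on none, against 25.0% and 31.2% of the 16 neighbours. The undetected Cdkn2a thus stands between detected genes in all 4 groups, and whether its DNA is intact in these lines was not tested. Of the 16 measured neighbours of Trp73 on the same chromosome, 31.2% were detected on every array that measured them and 6.2% on none.

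**Figure D4:**
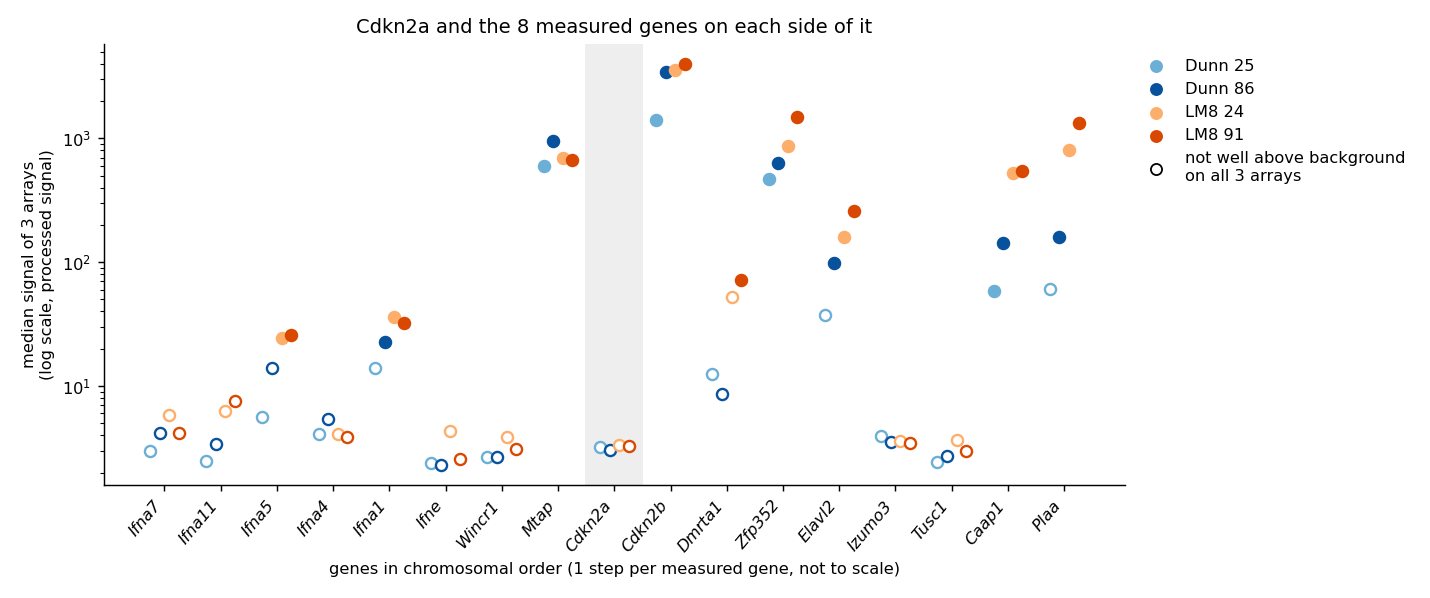
Median processed signal of 3 arrays (vertical axis, log scale) for Cdkn2a, shaded, and the 8 measured genes on each side in chromosomal order, in each of the 4 groups. Filled points were detected on each of the 3 arrays. Mtap and Cdkn2b, on either side of Cdkn2a, are filled in all groups, and Cdkn2a is open in all groups.

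The upstream sequences of this locus are shown because 1 gene of the pair is undetected beside a bright neighbour. They are the 250 bases before each RefSeq start (GRCm38.p6, minus strand, 5′ to 3′), with E2F site letters TTTCCCGC in capitals, and lie at chr4:89294620-89294869 for the p19Arf start, chr4:89282193-89282442 for the p16 start and chr4:89311033-89311282 for Cdkn2b.
Cdkn2a, p19Arf start: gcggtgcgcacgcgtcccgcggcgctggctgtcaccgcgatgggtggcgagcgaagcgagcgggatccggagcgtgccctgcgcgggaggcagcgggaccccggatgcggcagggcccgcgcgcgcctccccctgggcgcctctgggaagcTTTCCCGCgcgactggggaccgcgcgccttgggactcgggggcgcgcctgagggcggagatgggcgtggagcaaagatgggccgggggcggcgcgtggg
Cdkn2a, p16 start: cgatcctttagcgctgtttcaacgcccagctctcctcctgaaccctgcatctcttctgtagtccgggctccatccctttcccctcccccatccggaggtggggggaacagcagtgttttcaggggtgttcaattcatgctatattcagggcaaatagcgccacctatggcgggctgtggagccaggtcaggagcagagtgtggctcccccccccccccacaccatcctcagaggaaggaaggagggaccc
Cdkn2b: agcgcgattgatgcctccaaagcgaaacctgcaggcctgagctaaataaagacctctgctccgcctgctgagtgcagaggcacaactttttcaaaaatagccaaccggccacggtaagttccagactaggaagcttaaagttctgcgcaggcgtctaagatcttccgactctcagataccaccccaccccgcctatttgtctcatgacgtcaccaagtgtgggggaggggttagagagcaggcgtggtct
The p19Arf window holds 40 CG dinucleotides, more than or as many as 98.9% of all upstream windows, the p16 window 7 and the Cdkn2b window 12. The letters TTTCCCGC begin 99 bases before the p19Arf start and occur on either strand in 0.89% of all windows. A second E2F form, TTTGGCGC, occurs in 0.42% of windows and in none of those of the axis genes, among which Rb1 had no window and was not searched.

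Cdkn2c encodes p18, an inhibitor of Cdk4 and Cdk6. Its log2 signal was -2.19, -0.30 and -2.19 in early Dunn, -1.80, -2.40 and -3.74 in late Dunn, -0.97, -0.86 and -1.20 in early LM8 and -1.09, -0.63 and -0.72 in late LM8 cells. The late LM8 arrays all lay above the late Dunn arrays, whose SD was 1.00, while early Dunn replicate 2 lay above the early LM8 arrays. The difference was 1.83 between the late lines (SE 0.540, adjusted p = 0.165) and 0.56 between the early lines (SE 0.562, adjusted p = 0.459). Without late Dunn replicate 1 the late difference was 2.26 and passed the test (adjusted p = 0.0291), and without early Dunn replicate 2 the early difference was 1.19 and passed it too (adjusted p = 0.0273). Of 18 alternatives only 4 called the late difference and 2 the early one. The early difference ranged from -0.11, with normexp background correction, to 2.02, without scaling. The passage effect was -1.09 in Dunn cells and 0.19 in LM8 cells, and its difference between the lines was 1.28 (95% interval -0.55 to 3.11).

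Wider gene lists of the same pathways were set beside these 10 genes, 1 probe a gene. Of 25 measured regulators and partners of p53, 22 were detected on every array that measured them, as were 20 of 32 p53 target genes (Perp, Plk2 and Pmaip1, named after their values were seen, were detected on none), 25 of 32 Rb pathway genes and 25 of 28 E2F target genes. With passage 0 genes of these 4 lists were called in Dunn cells and 0 in LM8 cells. Between the early lines Twist1 rose and Ppp1r13b fell among the regulators, Tnfrsf10b and Tnfrsf26 fell among the targets, and Ccnd2 rose and Tfdp1 fell in the Rb pathway, with 0 of 28 E2F targets called. Between the late lines Tnfrsf10b fell, and 0 genes of the other 3 lists were called. The shares of all genes called in these comparisons are those given for the 10 genes.

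The list medians are given beside that of all genes. Between the early lines the 10 genes had a median change of -0.47, the regulators -0.27, the p53 targets -0.71, the Rb pathway -0.27 and the E2F targets -0.26, beside -0.76 for all genes and -0.44 for all detected genes. Between the late lines the medians were -0.55, 0.06, -0.58, -0.20 and -0.24, beside -0.55 for all genes and -0.24 for all detected genes. With passage in Dunn cells they were -0.19, -0.005, -0.06, -0.20 and 0.07, beside -0.34 and -0.27. With passage in LM8 cells they were -0.18, 0.14, -0.03, -0.01 and 0.09, beside -0.18 and -0.07.

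Tnfrsf10b, the death receptor for TRAIL and a p53 target, had the largest difference between the lines among the genes of these 4 lists. Its processed signal was 180.0, 317.0 and 202.6 in early Dunn and 364.6, 833.8 and 301.7 in late Dunn cells, against 3.18, 5.57 and 13.3 in early LM8 and 10.0, 18.1 and 14.3 in late LM8 cells. It was detected on all 6 Dunn arrays and on 1 of 6 LM8 arrays. Early LM8 cells, in which it was undetected, were at least 49.7-fold lower than early Dunn cells (adjusted p = 0.00165), where the bound sets each undetected value to the lowest detected signal of its array or to its own if higher. Between the late lines, with 1 of 3 late LM8 arrays detected, Tnfrsf10b fell by 5.91 on the log2 scale (SE 0.332, adjusted p = 0.00178), and with the slide as a block the adjusted p was 0.0521. With normexp background correction the changes were smaller, -3.32 between the early lines (adjusted p = 0.0152), which is short of the bound, and -3.37 between the late lines (adjusted p = 0.00162). Tnfrsf26, a related receptor named after its values were seen, was not detected on any early array, so its call carries no fold.

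Ccnd2 encodes cyclin D2, a partner of the kinases that phosphorylate Rb. Its signal was 158.0, 202.7 and 83.0 in early Dunn cells, 5571, 6347 and 3915 in late Dunn, 4146, 3964 and 3587 in early LM8 and 5829, 10175 and 5821 in late LM8 cells. Early Dunn cells stood apart from the other 3 groups. Early LM8 cells were higher than early Dunn cells by 3.34 (SE 0.337, adjusted p = 0.00454), and the passage effect was lower in LM8 than in Dunn cells by a log2 difference of -3.77 (SE 0.362, adjusted p = 0.0021). With passage in Dunn cells its change of 4.26 (SE 0.308) had an adjusted p of 0.0859. The other D cyclins, Ccnd1 and Ccnd3, and the kinases Cdk4 and Cdk6 were not called in any comparison, and are named after their values were seen.

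The other called list genes changed less. Tfdp1, the partner with which E2F binds DNA, fell by 1.63 between the early lines (SE 0.288, adjusted p = 0.0335), but the change was -0.16 without scaling (adjusted p = 0.827). Ppp1r13b, which encodes the p53 cofactor Aspp1, fell by 2.56 (SE 0.347, adjusted p = 0.0143) and had scaled values of 0.95, 0.46 and 1.40 in early Dunn against -1.59, -1.53 and -1.75 in early LM8 cells, with a change of -1.09 without scaling (adjusted p = 0.125). Twist1, a transcription factor that dampens p53, rose by 2.67 (SE 0.493, adjusted p = 0.0385), from 1 detected array of 3 in early Dunn cells to 3 of 3 in early LM8 cells, but the change was 0.24 with normexp background correction (adjusted p = 0.722). With the slide as a block Tfdp1, Ppp1r13b and Twist1 had adjusted p-values of 0.084, 0.0746 and 0.0746. Of 18 alternatives 9, 11 and 10 kept these calls. Leaving out early Dunn replicate 3 or any 1 of the early LM8 replicates ended all 3 calls, with adjusted p-values between 0.0528 and 0.189.

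**Figure D5:**
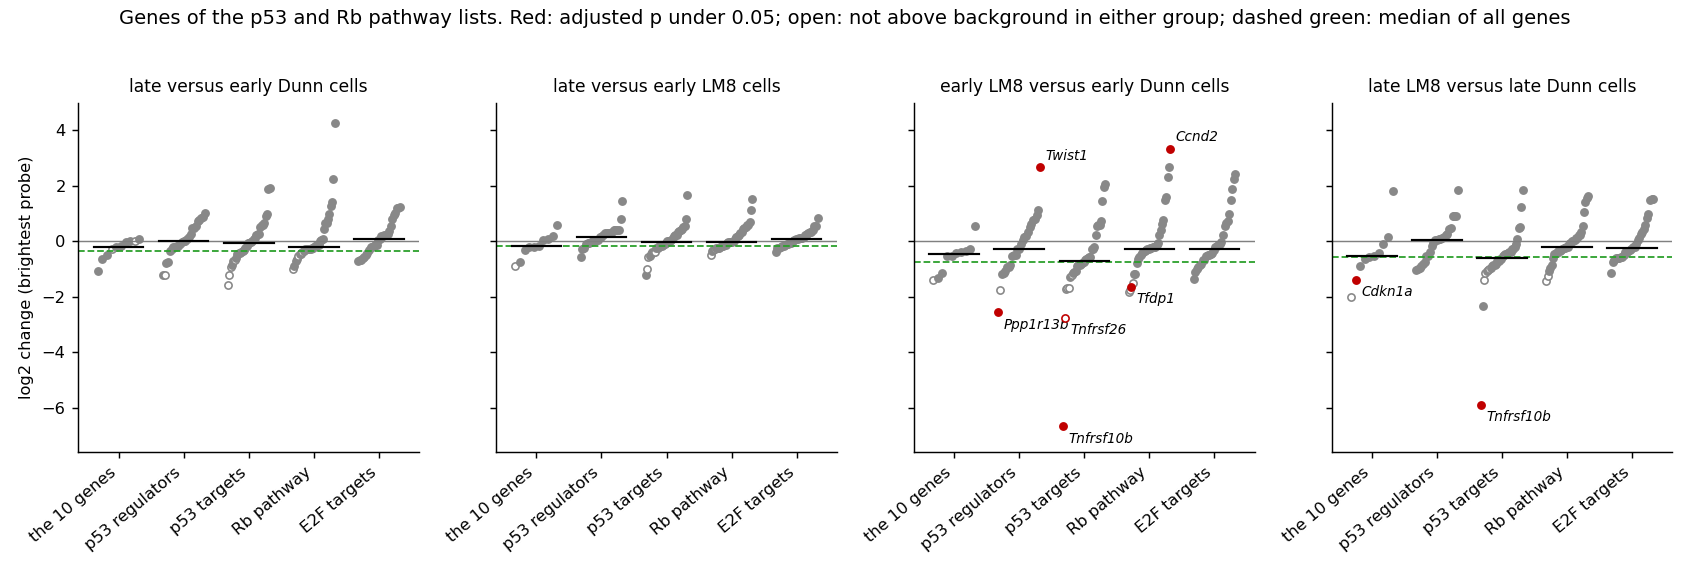
Log2 change (vertical axis) of each gene of the 10 axis genes and of 4 pathway lists in 4 comparisons, ordered by size within a list. Red marks an adjusted p under 0.05, open points were not detected in either group, black lines are list medians and the dashed line is the median of all genes. Tnfrsf10b lies far below the other genes in both comparisons of the lines, and the passage comparisons hold no red points.

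Genes whose signal followed that of an axis gene over the 12 arrays were sought among 14540 probes detected on at least 6 arrays. Closest to Cdkn1a were Psmb8 (Pearson r = 0.989), Nmi (0.988) and Rnf135 (0.988), and 3705 probes had an r over 0.8. Closest to Trp53 were Plk4 (0.963), Raver1 (0.963) and Tfpt (0.954), with 1760 probes over 0.8. For the undetected Cdkn2a the closest were Foxl2 (0.97), H4c14 (0.969) and Sfn (0.968), with 471 probes over 0.8. Its log2 signal was highest on the first early and the first late Dunn array, at -5.135 and -3.811, where the lowest detected signal was higher. These r values for Cdkn2a thus rest on undetected signals. The 12 arrays share groups, slides and array brightness, so these are descriptions of likeness only.

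The osteoblast label was checked with 10 measured markers. On every array that measured them 9 were detected, among them Runx2, Sp7, Col1a1 and Bglap2, and Dmp1 on 10 of 12 arrays. Of 5 endothelial markers Kdr was detected on all 12 arrays, Pecam1 on 7, Tek on 1, and Cdh5 and Emcn on none. Of 5 epithelial markers Krt14 was detected on 11 arrays, Epcam and Krt5 on 2, Krt19 on 1 and Cdh1 on none. Of 7 macrophage and osteoclast markers Csf1r and Itgam were detected on all 12 arrays, Ctsk and Lyz2 on 6, Acp5 on 3, and Adgre1 and Ptprc on 2. Ctsk, the osteoclast protease cathepsin K, was higher in early LM8 than in early Dunn cells by 3.06 (adjusted p = 0.00421, or 0.284 with normexp background correction) and, in late against early LM8 cells, fell by 5.20 (adjusted p = 0.000835). Among the epithelial markers Krt5 was called in late against early LM8 cells, detected on 2 of 3 late and 0 of 3 early arrays. Both were named after their values were seen, and the part of such cells in the results above was not tested.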

How the data were processed

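The authors scanned 12 one-colour Agilent mouse arrays, and the deposited intensity values are the processed signals of Agilent Feature Extraction 10.7.3, background-subtracted per spot. The deposited series table holds the same signals unscaled. Labels and the study's methods name different RNA extraction kits. Control spots and outlier-flagged spots were left out, spots of a probe were averaged, and log2 of the deposited signal minus the array's 75th percentile was analysed. Of a gene's probes the brightest over all arrays stood for the gene. Groups were compared in R 4.3.3 with limma 3.58.1 (lmFit, eBayes) on the arrays compared, with Benjamini-Hochberg adjustment over all probes, and the passage effects of the lines by an interaction over 12 arrays. The code was tested on simulated data. A bound for an undetected probe uses the lowest detected signal of each array. Precision is limited by the 3 arrays in each group.

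Replicate numbers mark the slide, a shared batch. Of 18 pairs of same-numbered arrays, 12 had deviations from their group means correlated above 0.1 (range -0.246 to 0.679), and fits with the slide as a block are given where they change a call. The normexp alternative used the median signal. Other alternatives were quantile normalization, the percentile over detected probes, no scaling, a floor, detected probes alone, the mean over probes, 1 fit over all arrays, a plain t-test, array quality weights and leaving out arrays, and leaving out slide 1 was chosen after seeing the data.

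All 10 genes and the chromosomal neighbours of Cdkn2a and Trp73 are described. From each list and comparison up to 2 genes with the largest rise and up to 2 with the largest fall were named among those called, without overlap and detected on each array of the higher group, and the 3 probes most correlated with Trp53, Cdkn1a and Cdkn2a. The genes and lists were chosen with earlier results of these data known.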

Additional observations from a re-analysis of the deposited data

Results flagged for a closer look

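The change of Ccnd2, the cyclin D2 gene, with passage in LM8 minus that in Dunn cells was -3.771 on the log2 scale (SE 0.362, limma interaction over 12 arrays, adjusted p = 0.0021), so that its passage effect differed between the lines. The change was 4.26 in Dunn cells and 0.49 in LM8 cells.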

How the results depend on the processing

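The direction and call of Tnfrsf10b and Ccnd2 between the early lines and of the Ccnd2 interaction held under every alternative, while the call of Cdkn1a between the late lines held in 9 of 18 alternatives, with the same direction in 18. Of 918 values for single genes, 775 kept their direction and their side of the threshold, 85 turned in direction, 35 lost a call and 23 gained one. The cause of these differences was not tested. Array quality weights did not reach convergence. Dim probes and 3 arrays a group limit what can be seen, and the slide as a block left Cdkn1a at an adjusted p of 0.172 and changed none of the other calls among the 10 genes.

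The counts that follow come without the share of all genes under the same setting. They describe the settings and are not a result about the 10 genes. The number of the 10 genes called between the early lines, 0, became 1 with quantile normalization and in 1 fit over all arrays, 2 with detected probes alone, 4 with a floor on dim signals and 8 with array quality weights, and 0 to 3 when leaving out 1 array, the 3 without early Dunn replicate 2. Between the late lines the 1 called became 0 with the percentile over detected probes, without scaling, with the mean over probes and with the replicate block, 2 with detected probes alone, the plain t-test, array quality weights and without slide 1, and 0 to 2 when leaving out 1 array. With array quality weights 2 were called with passage in Dunn cells and 1 in LM8 cells. By the study's criterion the 2 between the early lines became 0 with the percentile over detected probes, 4 with a floor, 6 with array quality weights and 1 to 4 when leaving out 1 array, and the 2 between the late lines 1 without scaling and 1 to 2 when leaving out 1 array. With passage in Dunn cells it was met by 1 with normexp, 2 with array quality weights and 1 without slide 1, with passage in LM8 cells by 1 with array quality weights and 0 to 1 when leaving out 1 array, and for the interaction by 1 with normexp, 1 with array quality weights and 0 to 1 when leaving out 1 array.

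Without scaling the log2 change had the opposite sign for passage in Dunn cells Trp53 0.49, Mdm4 0.75, Cdkn1a 0.32, Cdkn2b 0.95, Rb1 0.81 and Bbc3 0.96, for passage in LM8 cells Trp53 0.15, Cdkn2b 0.21, Rb1 0.067 and Bbc3 0.16, for the early lines Trp53 0.33, Mdm2 0.94, Mdm4 1.09, Cdkn1a 0.16, Cdkn2b 1.203, Rb1 0.95 and Bbc3 1.11, for the late lines Mdm2 0.33, Mdm4 0.76, Cdkn2b 0.46, Rb1 0.21 and Bbc3 0.31 and for the interaction Trp53 -0.34 and Mdm4 -0.34. With the percentile over detected probes the log2 change had the opposite sign for passage in Dunn cells Mdm4 0.058, Cdkn2b 0.26, Rb1 0.12 and Bbc3 0.27, for the early lines Mdm4 0.077, Cdkn2b 0.18 and Bbc3 0.096 and for the late lines Mdm4 0.13. With normexp background correction the log2 change had the opposite sign for passage in Dunn cells Cdkn2b 0.19 and Bbc3 0.23, for passage in LM8 cells Mdm4 -0.028 and for the early lines Cdkn2c -0.11. With quantile normalization the log2 change had the opposite sign for passage in Dunn cells Cdkn2b 0.052 and Bbc3 0.082. With array quality weights the log2 change had the opposite sign for passage in Dunn cells Mdm2 -0.041 and Bbc3 0.014 and for the interaction Mdm2 0.13, Cdkn1a 0.24 and Rb1 0.48. With the mean over the probes of a gene the log2 change had the opposite sign for passage in Dunn cells Mdm4 0.43, for the early lines Mdm4 0.597, for the late lines Mdm4 0.46 and for the interaction Mdm4 -0.14. Without slide 1 the log2 change had the opposite sign for passage in Dunn cells Mdm4 0.052 and Bbc3 0.014, for passage in LM8 cells Trp53 0.17 and Mdm4 -0.072 and for the interaction Mdm2 0.012, Mdm4 -0.12 and Cdkn2b 0.18. Leaving out 1 array at a time turned the sign of small changes, which then ranged for passage in Dunn cells Bbc3 -0.11 to 0.15, Cdkn2b -0.22 to 0.11, Mdm4 -0.55 to 0.14 and Rb1 -0.34 to 0.12, for passage in LM8 cells Mdm4 -0.24 to 0.25 and Bbc3 -0.53 to 0.089, for the late lines Mdm4 -0.46 to 0.22 and for the interaction Mdm2 -0.074 to 0.081, Cdkn2b -0.303 to 0.062, Rb1 -0.41 to 0.043, Mdm4 -0.087 to 0.598, Bbc3 -0.53 to 0.091, Cdkn1a -0.23 to 0.048 and Trp53 -0.057 to 0.56.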
